A study of Mus musculus with 9 samples.

Results

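BPI-fold genes encode secreted proteins related to the bactericidal/permeability-increasing protein, and 9 of them were followed here: Bpifa1, Bpifb1, Bpifb2, Bpifb3, Bpifb4, Bpifb5, Bpifb6, Bpifb9a and Bpifb9b. They were chosen by name as genes for antimicrobial and surfactant proteins of nasal mucus; the rule that selects them uses no measured value, but it was set with earlier results of these data known. All 9 had a row among the 24421 gene rows of the count table, and all 9 were among the 20213 genes tested. The counts come from polyA-selected RNA of the main olfactory epithelium (MOE), which lines the back of the nasal cavity and detects odours, taken whole from 9 mice: 3 wild type (WT), 3 TAAR enhancer 1 +/- (het) and 3 TAAR enhancer 1 -/- (homo). TAAR enhancer 1 is a noncoding element of the gene cluster for trace amine-associated receptors, a small family of olfactory receptors, and the mice were littermates from a line in which it had been deleted by CRISPR-Cas9. The labels give strain C57BL/6 and age P14 for all 9 mice, whereas the study's reporting summary describes a mixed background and adult mice for this line, and which holds here was not resolved. The study asked what loss of the enhancer does to receptor genes. The comparison below asks a narrower side question, whether the secretory and marker genes listed here differed between the genotypes.

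The BPI fold is a boomerang-shaped, lipid-binding protein fold. Short members (BPIFA) hold a single such domain and long members (BPIFB) hold a pair. BPIFA1 is a major protein of upper airway fluid that lowers surface tension, binds bacterial lipopolysaccharide and regulates the epithelial sodium channel. BPIFB1 is secreted by goblet cells and by submucosal glands of the airway. BPIFB3 and BPIFB4 were first described from the olfactory mucosa, where Bowman's glands secrete the mucus that bathes the cilia of sensory neurons, and BPIFB9 is vomeromodulin, a glycoprotein of nasal and vomeronasal glands.

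The 9 genes lie on the plus strand of chromosome 2 of GRCm38, from position 153875045 to position 154320646. This stretch of 446 kb holds 13 protein-coding genes, and all 13 are BPI-fold genes. Their order along the chromosome starts with Bpifb2, Bpifb6, Bpifb3 and Bpifb4, goes on with the short genes including Bpifa1, and ends with Bpifb1, Bpifb5, Bpifb9a and Bpifb9b. No annotated gene overlaps any of the 9. The 4 promoters printed here belong to the most abundant member, Bpifa1, and to 3 neighbouring genes, Bpifb5, Bpifb9a and Bpifb9b, whose levels moved together from mouse to mouse. Each runs from 250 bases before to 50 bases after the RefSeq start site (GRCm38.p6, plus strand), with capitals marking TATAAA, the TATA box; CATATG, the site known for the secretory cell factor Bhlha15; and CCAAT, read on either strand.
Bpifa1 (chr2:154142630-154142929): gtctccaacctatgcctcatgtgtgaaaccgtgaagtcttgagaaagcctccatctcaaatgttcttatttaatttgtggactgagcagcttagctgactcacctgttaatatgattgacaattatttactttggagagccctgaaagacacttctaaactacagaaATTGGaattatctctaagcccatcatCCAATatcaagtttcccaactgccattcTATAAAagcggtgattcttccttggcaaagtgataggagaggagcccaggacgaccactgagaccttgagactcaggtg
Bpifb5 (chr2:154223492-154223791): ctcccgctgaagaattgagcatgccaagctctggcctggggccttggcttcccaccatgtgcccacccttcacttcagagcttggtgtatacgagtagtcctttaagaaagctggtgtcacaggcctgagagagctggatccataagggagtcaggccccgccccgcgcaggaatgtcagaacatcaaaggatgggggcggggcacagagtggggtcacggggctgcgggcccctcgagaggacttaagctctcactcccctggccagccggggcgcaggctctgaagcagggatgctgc
Bpifb9a (chr2:154257629-154257928): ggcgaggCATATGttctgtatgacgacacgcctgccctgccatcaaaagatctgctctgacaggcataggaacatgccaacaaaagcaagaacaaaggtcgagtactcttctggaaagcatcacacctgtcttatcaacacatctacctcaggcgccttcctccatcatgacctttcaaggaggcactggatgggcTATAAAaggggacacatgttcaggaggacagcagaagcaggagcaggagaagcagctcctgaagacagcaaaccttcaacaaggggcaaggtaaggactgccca
Bpifb9b (chr2:154306994-154307293): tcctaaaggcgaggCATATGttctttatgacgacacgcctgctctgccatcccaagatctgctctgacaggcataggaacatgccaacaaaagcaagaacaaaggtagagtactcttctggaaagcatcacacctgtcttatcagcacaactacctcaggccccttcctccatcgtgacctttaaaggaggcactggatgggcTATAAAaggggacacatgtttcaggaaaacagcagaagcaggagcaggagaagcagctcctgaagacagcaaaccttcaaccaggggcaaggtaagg

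The promoters of Bpifb9a and Bpifb9b were 95.5% identical over 292 aligned bases, with 13 mismatched. Those of Bpifb5 and Bpifb9a were 56.6% identical over 267 aligned bases, with 66 gapped. Apart from Bpifb9a and Bpifb9b, pairs of members ran from 50.5% (Bpifa1 and Bpifb4) to 65.6% (Bpifa1 and Bpifb6). TATAAA stood at position -29 of Bpifa1, -54 of Bpifb9a and -47 of Bpifb9b, and on either strand in 13.6% of all 32851 RefSeq promoters. CATATG stood at -243 of Bpifb9a, at -236 of Bpifb9b and at -232 of the second annotated promoter of Bpifb1, and in 3.91% of all promoters. CCAAT was found for Bpifa1 and Bpifb4 and in 37.4% of all promoters. TGTTTAC, a motif of forkhead factors, was found in none of the 11 promoters of the 9 genes and in 3.65% of all promoters. None of these motifs was found for Bpifb5. The promoters of Bpifb9a and Bpifb9b are near-identical, so their shared matches are not separate observations. CATATG is given for a factor, Bhlha15, that was singled out after its expression values were seen. All are matches of letters in a 300-base window, and binding of any factor was not tested.

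Libraries held 24583906 to 32631951 reads in genes, and the 9 genes took 0.774 to 1.31% of them. A count of 3 reads corresponds to 0.0916 to 0.122 CPM (read counts scaled to a common depth with TMM library sizes), a limit that covers counting error only. No pair of libraries within a genotype was alike to within counting error (chi-square divided by its degrees of freedom, 4.34 or more), and each counts as 1 mouse. Summed Taar2, Taar3, Taar4 and Taar5, receptor genes of the cluster that holds the deleted enhancer, fitted the labels at 9.11 to 10.3 CPM in WT, 5.34 to 6.54 CPM in het and 0.0387 to 0.106 CPM in homo mice. Summed vomeronasal receptors, 338 genes of a separate sense organ, set 3 libraries apart, at 68.1 CPM in het 1, 119.9 CPM in homo 2 and 69.5 CPM in homo 3 against at most 17.3 CPM in the other 6. P-values measure the spread between mice.

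Bpifa1 was the most or second most abundant gene per kilobase of exon in every library, and 5 of the 9 genes ranked within the top 30 by their mean. Averaged over the 9 libraries, Bpifa1 reached 2182 CPM per kb, rank 1 of the 23350 genes with an annotated length. By library it was rank 1 in the 3 WT mice, het 1 and het 2, and rank 2 in het 3 and the 3 homo mice. Bpifb4 followed at 798 CPM per kb (rank 14), Bpifb9b at 765 (rank 15), Bpifb3 at 569 (rank 26) and Bpifb6 at 554 (rank 27). Bpifb9a averaged 119.7 CPM per kb (rank 189), Bpifb5 74.6 (rank 389) and Bpifb1 8.81 (rank 6395), while Bpifb2 was at 0.0728 (rank 18284). Several neighbours in this order were not separated by their spread over libraries: Bpifb4 (616 to 875 CPM per kb) fell within the range of Bpifb9b (39.5 to 1941), Bpifb3 (455 to 652) overlapped Bpifb6 (449.6 to 609), and Bpifb9a (5.74 to 272) overlapped Bpifb5 (5.08 to 171).

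**Figure D1:**
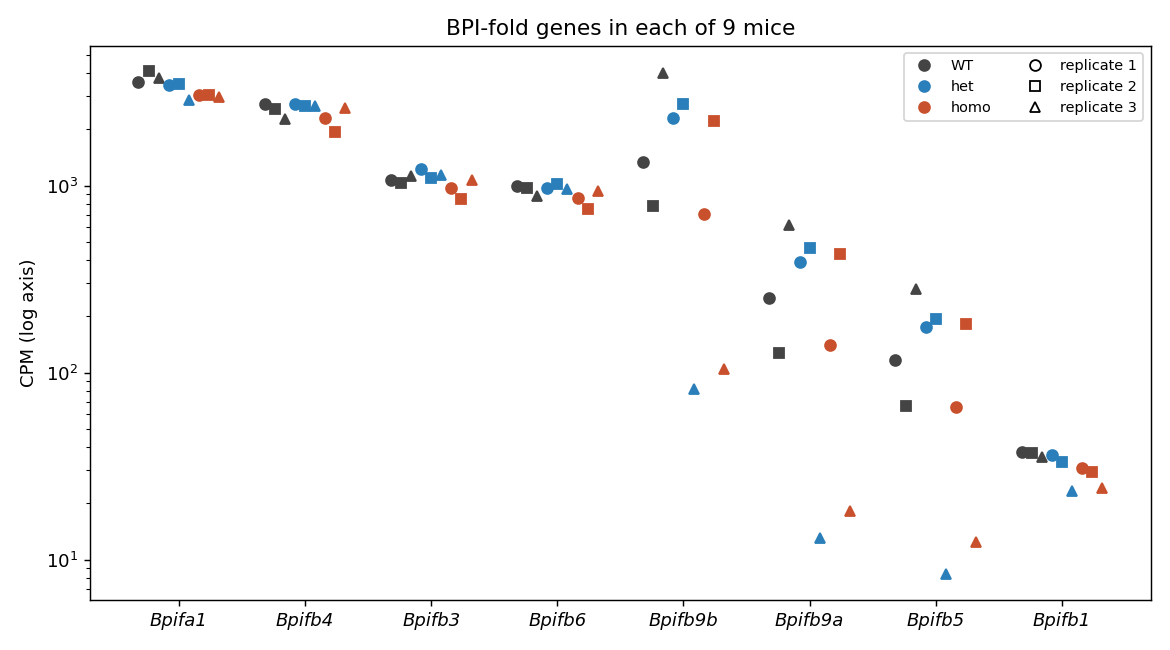
CPM on a log axis of 8 BPI-fold genes (Bpifb2, at 0 to 13 reads per library, is left out), with 1 point per mouse, coloured by genotype and shaped by replicate number. The points of Bpifb9b run from 81.7 CPM in het 3 to 4012 CPM in WT 3, whereas those of Bpifb4 stay between 1926 and 2736 CPM.

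Bpifb5, Bpifb9a and Bpifb9b varied between individual mice more than nearly all other genes. They did so together, and the ranges of the genotypes overlapped. Bpifb9b, which encodes vomeromodulin, was at 1337, 776 and 4012 CPM in the 3 WT mice, at 2296, 2714 and 81.7 CPM in het mice and at 705, 2204 and 105 CPM in homo mice. Het 3 and homo 3 were the low mice and WT 3 the highest, so that the range of each genotype overlapped those of the others. Highest and lowest library differed 49.1-fold. Bpifb9a, its near-identical neighbour, was at 249, 127 and 618 CPM in WT, at 388, 466 and 13.1 CPM in het and at 140.2, 428 and 18.2 CPM in homo mice. Bpifb5, a long BPI-fold gene, was at 117, 66.3 and 280.4 CPM in WT, at 174, 193 and 8.32 CPM in het and at 65.3, 181 and 12.4 CPM in homo mice. For these genes, too, het 3 and homo 3 were lowest and WT 3 highest. Depth did not limit these values, since the lowest of them, Bpifb5 in het 3, rested on 246 reads. Bpifb9b made up 30.9% of the reads of the 9 genes in WT 3 and 1.05% in het 3, and ranked 3 of all genes per kilobase in WT 3 and 1079 in het 3. In bulk tissue, fewer cells of a type and less RNA per cell cannot be told apart.

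**Figure D2:**
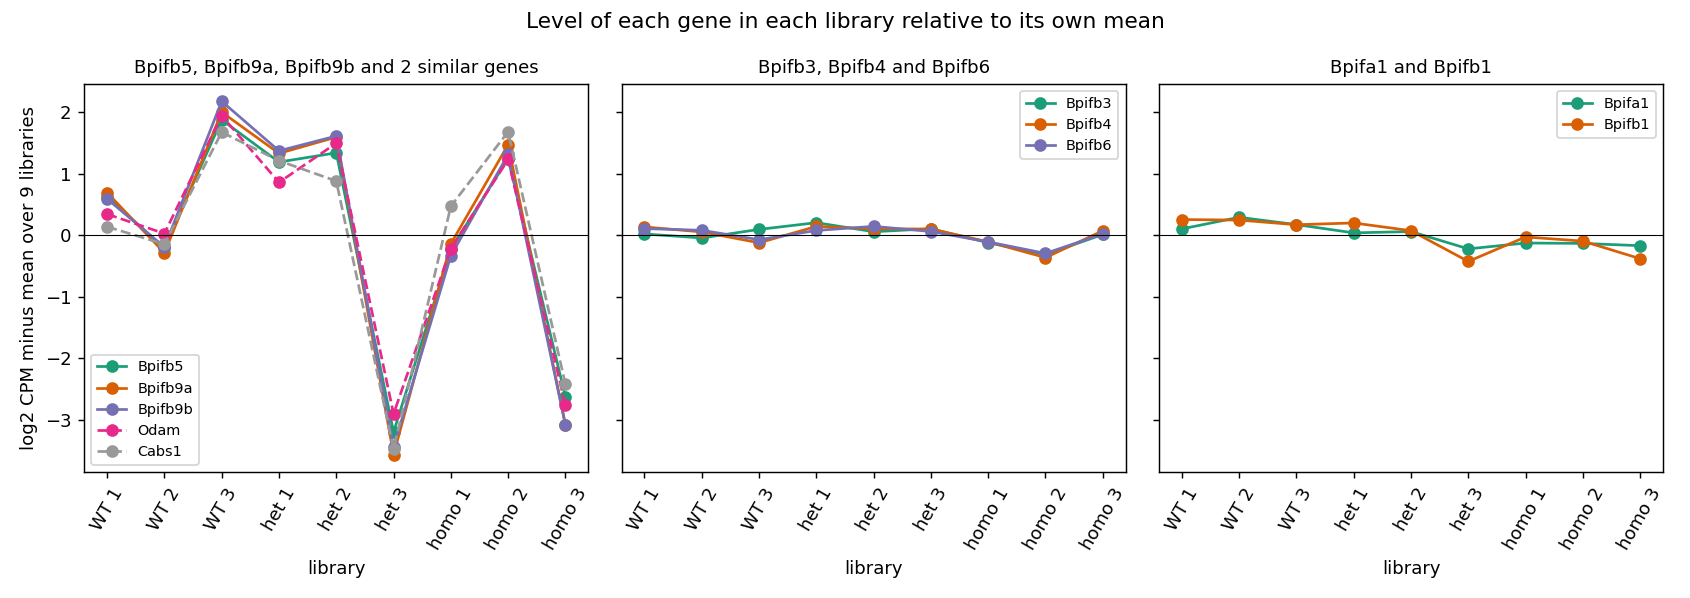
Log2 CPM of each gene minus its own mean over the 9 libraries (y axis, the same in all panels), by library (x axis). Bpifb5, Bpifb9a, Bpifb9b, Odam and Cabs1 (left) dip together in het 3 and homo 3 and peak in WT 3 or homo 2, whereas Bpifb3, Bpifb4 and Bpifb6 (middle) and Bpifa1 and Bpifb1 (right) stay near 0.

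The standard deviation of log2 CPM within a genotype was 2.24 for Bpifb9a, 2.20 for Bpifb9b and 1.96 for Bpifb5. These were ranks 2, 3 and 5 among 13815 genes with a mean of at least 100 counts, whose median was 0.083. In edgeR's fit the biological coefficient of variation of the 3 genes was 0.683 to 0.750, against 0.0555 to 0.0791 expected from the trend at their abundance. The standard deviation was 0.15 for Bpifb4, 0.11 for Bpifb3, 0.11 for Bpifb6 and 0.11 for Bpifa1, where between 15.8 and 32.6% of the ranked genes had a larger one. Bpifb1 stood between these groups, at 0.22, with 4.91% of ranked genes above it. The summed level of Bpifb5, Bpifb9a and Bpifb9b spanned 103 to 4910.2 CPM, or 47.6-fold, and that of Bpifb3, Bpifb4 and Bpifb6 in the same libraries spanned 3529 to 4928 CPM, or 1.40-fold.

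**Figure D3:**
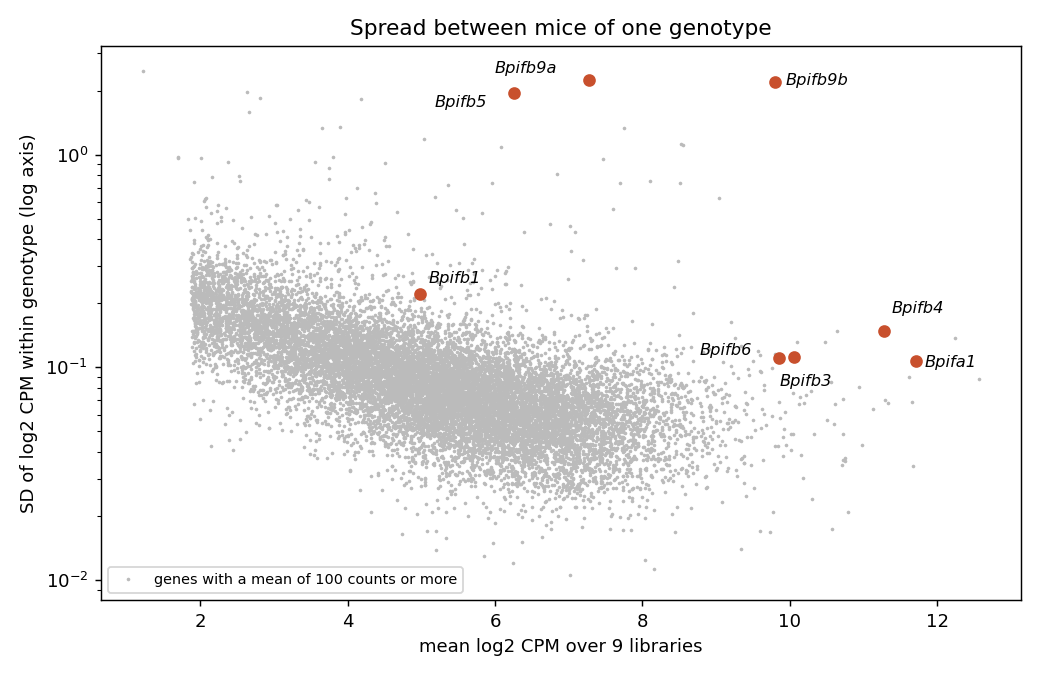
Standard deviation of log2 CPM within genotype (y axis, log scale) against mean log2 CPM over 9 libraries (x axis), with 1 grey point per gene with a mean of at least 100 counts and BPI-fold genes in red. Bpifb9a, Bpifb9b and Bpifb5 lie at 1.96 to 2.24, far above the grey points of like abundance, and the other members shown lie at 0.11 to 0.22. Bpifb2, with a mean of 4.33 counts, is left out.

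The ratios among the 3 genes moved far less than their levels. Bpifb9b counts were 5.03 to 6.49 times those of Bpifb9a, 8.47 to 14.3 times those of Bpifb5, and Bpifb9a counts were 1.47 to 2.41 times those of Bpifb5. Both ratios to Bpifb5 were lowest in the 2 low mice: Bpifb9a over Bpifb5 was 1.57 in het 3 and 1.47 in homo 3 and at least 1.91 in the other 7. Pearson's r of log2 CPM over the 9 libraries was 1.00 for each pair among them, 0.998 being the lowest, and 0.999 or more after removal of genotype means. Bpifb9a and Bpifb9b are near-identical copies. Their longest transcripts were 99.3% identical over 2065 aligned bases with 14 mismatched. Of the possible 100-base stretches, 46.1% in Bpifb9a and 46.2% in Bpifb9b occurred in no other BPI-fold gene, the only genes searched. Reads that mapped to more than 1 place stand outside the gene rows of the table, so the level of each of these genes, and the split between them, is uncertain. Bpifb5 shared no 50-base stretch with any other BPI-fold gene. Its transcript was 62.9% identical to that of Bpifb9a over 1573 aligned bases, with 556 gapped. Apart from Bpifb9a and Bpifb9b, pairs of members ran from 58.8% (Bpifb2 and Bpifb6) to 77.6% (Bpifa1 and Bpifb1) by this measure.

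**Figure D4:**
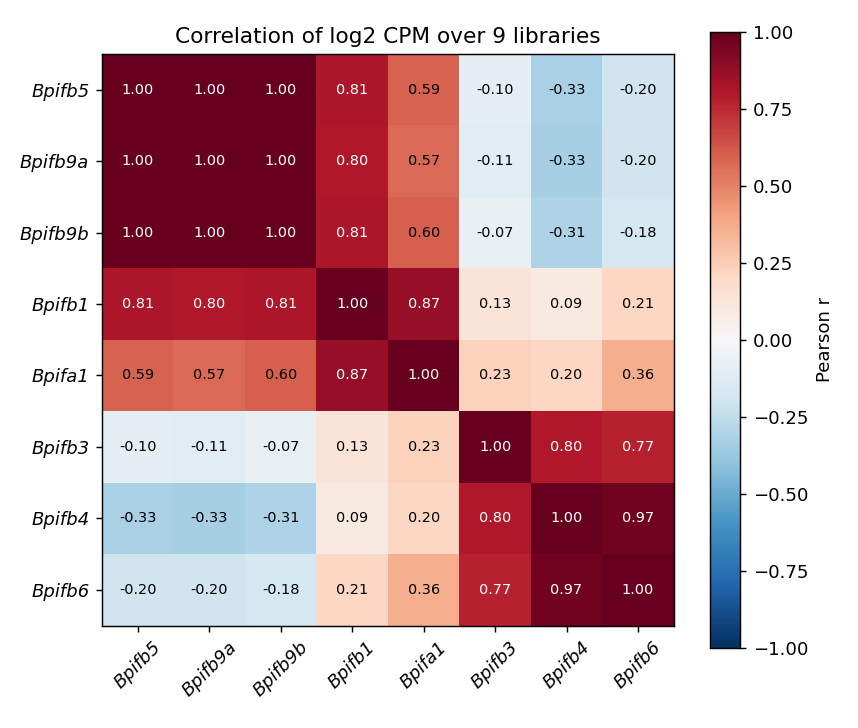
Pearson's r of log2 CPM between 8 BPI-fold genes over the 9 libraries, red for positive and blue for negative values. Bpifb5, Bpifb9a and Bpifb9b form a block at 1.00, Bpifb3, Bpifb4 and Bpifb6 a block at 0.77 to 0.97, and r between the blocks lies between -0.33 and -0.07.

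The genes whose profile over the 9 libraries was most like that of this trio were Odam, Appl2 and Cabs1 for Bpifb5 and Bpifb9a, and Odam, Appl2 and 1700003M02Rik for Bpifb9b. Odam, which encodes a secreted protein of ameloblasts and several glands, had r of 0.993 to 0.996 with them and spanned 0.913 to 26.3 CPM. Cabs1, a calcium-binding protein gene, had r of 0.976 with Bpifb5 and spanned 0.541 to 19.3 CPM. Appl2, an endosomal adaptor gene, had r of 0.978 to 0.981 and moved over a far smaller range, 55.6 to 75.3 CPM. 1700003M02Rik had r of 0.97 with Bpifb9b but spanned only 67.4 to 71.4 CPM. With 9 libraries and 13814 candidates, 73 genes had r over 0.9 with Bpifb9b, 70 with Bpifb9a and 68 with Bpifb5, compared with 45 for Bpifb4 and 8 for Bpifa1. The candidates include the other BPI-fold members, so the counts for the trio include its own genes. These values describe libraries that also share depth and dissection.

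Other secretions were read beside the trio from lists chosen by function. Among 12 antimicrobial secretion genes, 4 had r over 0.8 with Bpifb9b, and so did 4 of 8 nasal lipocalin genes and 4 of 9 genes of respiratory ciliated cells. The 4 antimicrobial genes include Odam, already given above as the gene closest to the trio. The others were Wfdc18 and, named after their values were seen, Ltf and Reg3g. No share of all genes with r over 0.8 stands beside these counts, so they have no background to be read against. Wfdc18, a whey acidic protein gene, had r of 0.95, and Obp1a, an odorant-binding protein gene, had r of 0.89. The sum of the lipocalins was 668 CPM in het 3 and 845 CPM in homo 3 and at least 1441 CPM in every other library, and the sum of the antimicrobial genes was 916 and 1053 CPM there and at least 1359 CPM elsewhere. Ciliated cell genes summed to 477 CPM in het 3 and 487 CPM in homo 3, with 497 to 653 CPM in the other 7 mice and none of the 9 genes at 0. Genes of olfactory sensory neurons went the other way, summing to 7655 CPM in het 3 and 7891 CPM in homo 3, the highest values of the 9, and Omp had r of -0.85 with Bpifb9b. The part of ciliated and neuronal cell content in the spread of the trio was not tested. The 9 gland and secretory cell genes together stayed within 451 to 484 CPM. Their median r with Bpifb9b was 0.22, and 1 of the 9 was over 0.8. This was Foxa1, a factor of airway and gland epithelium, which had r of 0.97 and ranged from 13.8 CPM in het 3 to 31.2 CPM in het 2, and Agr2, an endoplasmic reticulum protein gene of mucus cells, had r of -0.43 and ranged from 118 to 145 CPM. Aqp5, the water channel gene of glands (-0.32), and Sox10 (-0.31) were also negative. Spdef (0.72), Tff2 (0.38), Sox9 (0.37), Ascl3 (0.22) and Creb3l1 (0.017) were positive, like Foxa1. Apart from Foxa1 and Agr2, these gland genes were named after their values were seen. Bhlha15, singled out after its values were seen, had r of 0.97 with Bpifb5 and Bpifb9a and was lowest in homo 3 (8.43 CPM) and het 3 (8.69 CPM).

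No difference between genotypes could be seen for the trio at this spread. The log2 fold change in homo against WT mice was -1.02 for Bpifb9b (95% interval -3.02 to 0.98), -0.76 for Bpifb9a (-2.72 to 1.19) and -0.84 for Bpifb5 (-2.56 to 0.88), with edgeR adjusted p of 0.798, 0.864 and 0.807. The interval of Bpifb9b allows anything from 0.123 to 1.97 times the WT level. Het against WT gave -0.27, -0.20 and -0.30, and homo against het -0.76, -0.57 and -0.54, none with an adjusted p under 0.831. Single mice set these values: without WT 3 the homo against WT value was -0.071 for Bpifb9b and 0.059 for Bpifb9a, and without homo 2 it was -2.34 and -2.06.

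Bpifb3, Bpifb4 and Bpifb6 varied far less between mice than the trio, though more than the median gene, and had slightly lower values in homo than in het mice, without passing edgeR's test. Bpifb4, the most abundant of them, was at 2721, 2572 and 2275 CPM in WT, at 2736, 2662 and 2656 CPM in het and at 2299.6, 1926 and 2604 CPM in homo mice. Every homo mouse lay below every het mouse, homo 2 being lowest, while WT overlapped both groups. Bpifb3, whose protein is also found at the endoplasmic reticulum, was at 1075, 1028 and 1132 CPM in WT, at 1221, 1102 and 1140 CPM in het and at 974, 852 and 1069 CPM in homo mice. Bpifb6, likewise reported from intracellular membranes, was at 992, 973 and 875 CPM in WT, at 971, 1017 and 959.9 CPM in het and at 854, 750.3 and 933 CPM in homo mice. In both, homo and het again did not overlap. The log2 fold change in homo against het mice was -0.26 (SE 0.066) for Bpifb3, -0.24 (SE 0.081) for Bpifb4 and -0.22 (SE 0.066) for Bpifb6. With edgeR adjusted p of 0.188, 0.317 and 0.271, none passed the threshold of 0.05. Bpifb3 did with DESeq2 (adjusted p = 0.0124). Summed vomeronasal receptor reads were high in het 1, homo 2 and homo 3. Without these libraries the 3 values were -0.20, -0.21 and -0.21 with 1 homo mouse left, and the part of vomeronasal tissue in the result was not tested further. In homo against WT mice the values were -0.16 (95% interval -0.30 to -0.019), -0.15 (-0.32 to 0.024) and -0.16 (-0.30 to -0.022). Their edgeR adjusted p were 0.485, 0.616 and 0.478. In het against WT mice the values were 0.099, 0.090 and 0.054, and the groups overlapped in both comparisons.

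These 3 genes are neighbours within 63.7 kb, and they tracked each other closely. Bpifb4 counts were 2.57 to 2.82 times those of Bpifb6, and r between these genes was 0.97. Bpifb3 had r of 0.80 with Bpifb4 and 0.77 with Bpifb6. Bpifb4 and Bpifb9b, in contrast, had r of -0.31, and their ratio ran from 0.567 in WT 3 to 32.5 in het 3. Most like Bpifb4 were Proser2 (r = 0.97), Pde3a (0.97) and Ldhd (0.96), most like Bpifb6 were Ldhd (0.96), Zfp418 (0.96) and Proser2 (0.95), and most like Bpifb3 were Gosr2 (0.97), Sdk2 (0.97) and Enpp6 (0.97). Ldhd, a mitochondrial D-lactate dehydrogenase gene, spanned 215 to 314 CPM. Of the genes listed for glands, Sox10, singled out after its values were seen, had r of 0.91 with Bpifb4. The other 8 lay between -0.18 and 0.31, with a median of 0.076 over the 9. Which cells carried Sox10 in this bulk tissue was not tested.

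Bpifa1 had lower values in both mutant groups than in WT mice, a difference that did not pass edgeR's test over all genes. Its level was 3592, 4095 and 3769 CPM in WT, 3436, 3486 and 2869 CPM in het and 3064, 3051 and 2973 CPM in homo mice. All 6 mutant mice lay below all 3 WT mice, and het 3 was the lowest of all. In homo against WT mice the log2 fold change was -0.33 (SE 0.061, 95% interval -0.46 to -0.20), that is 0.793 times the WT level. The unadjusted p of 6.21e-05 became an edgeR adjusted p of 0.105 over 20213 genes, and so did not pass 0.05. It did pass with DESeq2 (adjusted p = 0.000154), with no filter on low counts (0.0205), when only the 6 libraries compared were fitted (0.00256), without het 2 (0.0480) and without het 3 (0.00221), at log2 fold changes of -0.33 in each. In het against WT mice it was -0.23 (SE 0.061, edgeR adjusted p = 1.00), and homo against het, where the groups overlapped, gave -0.11 (edgeR adjusted p = 0.568). Without the 3 libraries high in vomeronasal receptors the homo against WT value was -0.32 (adjusted p = 0.925, 1 homo mouse left). Marker sums beside this difference were 7106 to 7180 CPM in WT and 7360 to 7891 CPM in homo mice for the 7 olfactory sensory neuron genes, of which 6 were higher in homo mice, 0 passed the test and none was at 0. Those of the 6 sustentacular cell genes were 7340 to 7614 and 7016 to 7507 CPM, and those of the gland genes 460 to 471 and 451 to 464 CPM. The part of cell content in the lower Bpifa1 was not tested.

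Bpifb1 also had its highest levels in WT mice. It was at 37.5, 37.2 and 35.3 CPM in WT, at 36.0, 33.0 and 23.4 CPM in het and at 30.8, 29.4 and 24.1 CPM in homo mice. WT and homo mice did not overlap, and het 3 and homo 3 were lowest. The log2 fold change was -0.38 (SE 0.12, edgeR adjusted p = 0.382) in homo against WT and -0.25 (SE 0.12, edgeR adjusted p = 1.00) in het against WT mice. Over the 9 libraries Bpifb1 had r of 0.87 with Bpifa1 and 0.80 to 0.81 with the trio. Its closest genes were Ddah1 (0.97), Fbxl13 (0.95) and Ptpn2 (0.93), and those of Bpifa1 were Igfbp3 (0.94), Swap70 (0.92) and Mipep (0.91). Swap70 spanned only 61.0 to 68.1 CPM and Mipep 32.1 to 34.6 CPM.

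Bpifb2 was hardly expressed. It had 0, 5 and 3 reads in WT, 3, 0 and 10 in het and 13, 3 and 2 in homo mice, 39 in all, which is at or under the limit of 3 reads in 6 of the 9 libraries. Its values cannot separate the genotypes at this depth, and the genes nearest to it by r, Sytl1, Tjap1 and 1600002K03Rik, rest on these few reads.

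Counted over all 9 genes, edgeR called 0 in homo against WT mice, where it called 0.0495% of all genes tested, and 4 of the 9 had an unadjusted p under 0.05, beside 9.26% of all genes. It called 0 in het against WT mice (0.00495% of all genes), where 1 of the 9 had an unadjusted p under 0.05, beside 3.25% of all genes, and 0 in homo against het mice (0.114%), where 3 did, beside 10.4% of all genes. DESeq2 called 1, 0 and 1 of the 9. The median log2 fold change of the 9 was -0.33 in homo against WT, -0.20 in het against WT and -0.24 in homo against het mice. The medians of all genes were -0.00057, 0.0033 and -0.0017. In the same order, 8, 5 and 8 of the 9 were lower, beside 10149, 9799 and 10213 of all 20213 genes. Groups did not overlap for 2 of the 9 in homo against WT mice, where this held for 15.4% of all genes, for 1 in het against WT mice (8.68%) and for 3 in homo against het mice (14.1%). The 3 comparisons share libraries, and genes that track each other are not separate evidence.

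**Figure D5:**
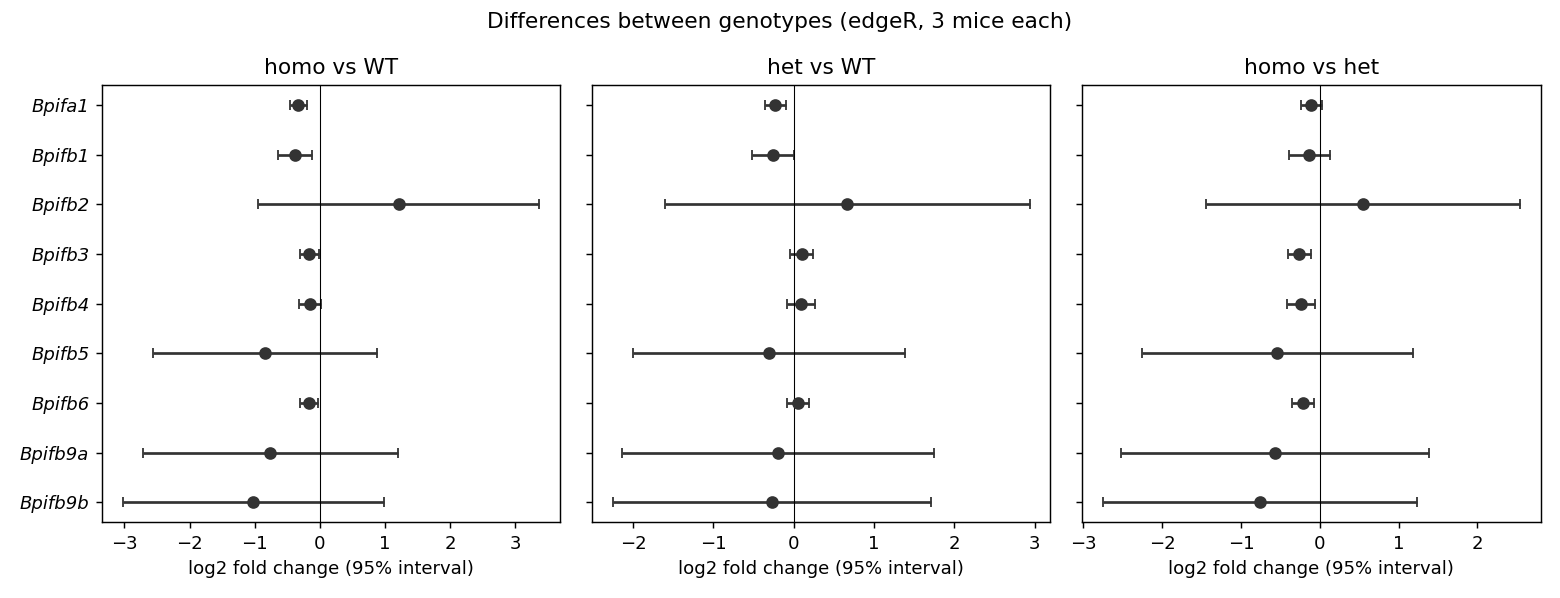
Log2 fold change with 95% interval (x axis) of each of the 9 BPI-fold genes (y axis) in 3 comparisons fitted by edgeR. The intervals of Bpifa1, Bpifb1, Bpifb3 and Bpifb6 lie below 0 in homo against WT mice and that of Bpifb4 reaches just above 0. The intervals of Bpifb2, Bpifb5, Bpifb9a and Bpifb9b span 0 widely.

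The other 8 BPI-fold genes were low. Lbp, the lipopolysaccharide-binding protein gene, and Pltp, the phospholipid transfer protein gene, led them. Lbp was at 31.3, 29.9 and 34.3 CPM in WT, at 33.3, 32.3 and 28.3 CPM in het and at 27.1, 22.1 and 26.7 CPM in homo mice. Homo mice lay below all others, and edgeR gave log2 values of -0.33 against WT (adjusted p = 0.332) and -0.30 against het mice (adjusted p = 0.240), each with an SE of 0.087. Pltp, which overlaps Ctsa on the other strand and so may share reads with it, averaged 22.5, 23.0 and 19.6 CPM. Bpifa2, a salivary protein gene, averaged 1.40 CPM in WT, 1.04 CPM in het and 0.921 CPM in homo mice, and Bpifa3, Bpifa5, Bpifa6, Bpifc and Bpi averaged at most 0.160 CPM per kb in any genotype. Of the 7 tested, 0 passed edgeR's test in any comparison. Outside the cluster, the next gene with more than trace reads, Cdk5rap1, stayed within 12.4 to 17.7 CPM over the 9 libraries.

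Among 68 tested genes of the 9 other lists (these BPI-fold genes, mucins, secretoglobins, antimicrobial secretions, lipocalins, and markers of glands, ciliated cells, sustentacular cells and neurons), edgeR called 0 in homo against WT, 0 in het against WT and 1 in homo against het mice, and 10, 7 and 7 had an unadjusted p under 0.05, beside 9.26%, 3.25% and 10.4% of all genes. Values were higher in homo than in WT mice for 24 of the 68 genes and lower for 44, beside 10149 lower of all 20213 genes tested. The gene called was Ugt2a1, an odorant-glucuronidating enzyme of sustentacular cells, at 639, 686 and 656 CPM in het and 539.5, 525 and 559.5 CPM in homo mice. It fell by 0.29 on the log2 scale (SE 0.049, edgeR adjusted p = 0.0383). In WT mice Ugt2a1 was at 613 to 692 CPM, above every homo mouse. Its homo against WT value was -0.28 (SE 0.049, edgeR unadjusted p = 4.35e-05, adjusted p = 0.0799). Muc2, the most abundant mucin gene per kilobase, averaged 278, 270.4 and 295 CPM in WT, het and homo mice, and Scgb1c1, the most abundant secretoglobin gene, 597, 605 and 602 CPM. Of the most abundant genes of the other lists, Foxj1, the master factor of motile cilia, had a homo against WT log2 value of -0.076, Wfdc18 of -0.056, Obp1a of 0.063, Agr2 of -0.10 and Omp of 0.12, and none passed edgeR's test.

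The genes with the largest homo against WT value in their lists lay on both sides of 0, and none passed edgeR's test. Below it were Odam (-0.87, SE 0.76), Muc5ac, a gel-forming mucin gene (-0.75, SE 0.25), Dnah5, a dynein gene of motile cilia (-0.65, SE 0.23), Mup4, a major urinary protein gene of the lipocalins (-0.63, SE 0.57), and Foxa1 (-0.33, SE 0.21). Their edgeR adjusted p were 0.783, 0.413, 0.422, 0.791 and 0.679. Above it were Rtp1, a gene for a receptor transport protein of olfactory neurons (0.14, SE 0.043, edgeR adjusted p = 0.345), and Scgb3a2, a secretoglobin gene (1.51, SE 0.69, edgeR adjusted p = 0.528). Rtp1 was at 570.3, 599.6 and 608 CPM in WT and at 643, 658 and 662 CPM in homo mice, without overlap. Scgb3a2 had 1, 3 and 4 reads in WT and 6, 10 and 6 reads in homo mice, so its value rests on few reads. Scgb1a1, the club cell secretoglobin of the lower airway, named after its values were seen, averaged at most 0.0502 CPM per kb.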

How the data were processed

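Polyadenylated RNA of whole MOE was sequenced from 9 mice, grouped by the genotype in each sample title. Per the submitters' notes, the authors used Trimmomatic 0.36, HISAT2 2.1.0 (mm10), HTSeq 0.6.1p1 and DESeq2 1.20.0. The study's text names featureCounts instead of HTSeq, and the annotation and strand setting are not given in the sources used here. The deposited count table holds raw counts per gene, and its 5 summary rows were left out. The deposited normalized signal is these counts divided by 1 size factor per library (0.903 to 1.20). Of its nonzero values, 100% were whole reads within 0.01, in 23125 genes found in both tables, and it was used only for this check.

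Genes with at least 10 summed counts were fitted with edgeR 4.0.16 (R 4.3.3, TMM, quasi-likelihood test, genotype as the only term, Benjamini-Hochberg over all genes, threshold 0.05). CPM per kb uses GENCODE M21 exon lengths, and likeness uses log2 CPM with a prior count of 2 over genes with a mean of at least 100 counts. Alternatives were DESeq2 1.42.0, other scalings and filters, the replicate number, vomeronasal reads and left-out libraries. The pipeline was tested on simulated data. The members and lists were chosen with earlier results of these data known. Besides the members and the other BPI-fold genes, the text names, per list, the genes called in any comparison or otherwise the most abundant per kb and the one with the largest homo against WT change, and the 3 genes most like each member. Others are said to be chosen after their values were seen.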

Additional observations from a re-analysis of the deposited data

How the results depend on the processing

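Directions of Bpifa1, Bpifb3, Bpifb4 and Bpifb6 held in all 3 comparisons under each of the 19 alternatives, while the calls depended on the setting. DESeq2 called 1 member (Bpifa1) in homo against WT mice and 1 (Bpifb3) in homo against het mice, with 63 and 130 genes in all and 3 in het against WT mice, and without independent filtering 1 and 1 members and 54, 126 and 3 genes. With no filter on low counts, 1 member was called in homo against WT mice and 50 genes in homo against het mice. Fitting only the 6 libraries compared called 1 member and 47 genes in homo against WT, 0 genes in het against WT and 11 in homo against het mice. Vomeronasal reads as a covariate left 8 genes in homo against het mice, and leaving out the 3 libraries with high vomeronasal reads left 6 and turned Bpifb1 there to 0.13.

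Whether replicate numbers pair the mice was not resolved, since libraries of different number were not correlated for comparison. Deviations from the group means correlated between same-numbered libraries by -0.24 to 0.094 (WT and het), -0.12 to -0.017 (WT and homo) and 0.024 to 0.45 (het and homo). Between het and homo mice the values were 0.39 for replicate 2 and 0.45 for replicate 3. The low mice of the trio, het 3 and homo 3, share a number. With the replicate block, 1 member was called in homo against WT mice (Bpifa1, adjusted p = 0.0229) and 1 in homo against het mice (Bpifb3, adjusted p = 0.0493), with 0 genes in het against WT and 41 in homo against het mice.

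Leaving out each library in turn gave 0 to 1 members in homo against WT mice (1 without het 2 or het 3) and 0 to 0 in the other 2 comparisons, with 8 to 33, 0 to 1 and 7 to 190 genes in all. The extremes of 33 and 190 came without het 3. Signs turned for Bpifb9a in homo against WT mice (-2.06 without homo 2 to 0.059 without WT 3), and in het against WT mice for Bpifb5 (-0.76 to 0.45, and 0.25 without het 3), Bpifb9a (-0.72 to 0.62, and 0.36) and Bpifb9b (-0.78 to 0.68, and 0.29), lowest without het 2 and highest without WT 3. Bpifb2 ranged from -0.74 (without het 3) to 1.30 in het against WT mice and from -0.60 (without homo 1) to 1.95 in homo against het mice. The cause was not tested. With 3 mice per genotype, differences of the trio below several-fold cannot be resolved, and the read length is not given in the sources used here.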

Other observations

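Another set of nasal secretions stood apart in a different mouse. Obp2a, an odorant-binding protein gene, was at 500.3, 426 and 343 CPM in WT, at 869, 269.5 and 183 CPM in het and at 462, 316 and 256 CPM in homo mice, with het 1 the highest of the 9. Dmbt1, a mucosal scavenger protein gene, was at 369.6 CPM in het 1 and between 57.3 and 143 CPM in the other 8 mice. Obp2b, Lcn3 and Lcn4 were also highest in het 1, at 689, 497 and 41.9 CPM. Het 1 held 68.1 CPM of vomeronasal receptors, whereas homo 2, with 119.9 CPM, had 316 CPM of Obp2a and 101 CPM of Dmbt1. The part of vomeronasal tissue in these values was not tested. Bpifb9b was at 2296 CPM in het 1, which is within the range of its WT mice. These genes were singled out after their values were seen.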
